A study of Mus musculus with 6 samples.

Results

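Genes of the roof plate and of the choroid plexus were followed as a set of 9 in the counts of 6 RNA-seq libraries. The set was taken by symbol: Lmx1a, Lmx1b, Otx1, Otx2, Ttr, Clic6, Folr1, Foxj1 and Trpm3, each of which matched 1 of the 48526 gene identifiers in the table through GENCODE release M21, and all 9 had enough reads to be tested. The libraries came from neural progenitor cells differentiated from mouse embryonic stem cells (mESCs), 3 from a line labelled -/- for Dmrta2, a transcription factor gene of the dorsal telencephalon, and 3 from a Dmrta2 flox/flox line, the control. The labels give 1 line per genotype, so genotype and line cannot be told apart, and what separates the replicates (culture, passage or day) is not stated, so the p-values rest on the spread between libraries of 1 line, which may be technical. Cells of both groups were grown in N2B27 medium with LDN193189, a BMP receptor inhibitor (100 nM), and SB431542, an activin and TGF-beta receptor inhibitor (10 µM), up to day 4. They also received XAV939, a Wnt pathway inhibitor (1 µM), up to day 6 and cyclopamine, a Hedgehog pathway inhibitor (1 µM), from day 2 to day 10, and were replated on day 5. RNA was extracted on day 8. The labels give no age, strain or sex for the lines and do not say which part of Dmrta2 is absent.

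The roof plate is the strip of cells along the dorsal midline of the neural tube. It secretes BMP and Wnt ligands that pattern the neighbouring tissue, and its formation depends on BMP signalling and on the LIM-homeodomain factor Lmx1a. In the forebrain the dorsal midline gives rise to the cortical hem and to the choroid plexus, a ciliated epithelium that secretes cerebrospinal fluid and makes transthyretin, the product of Ttr. Several genes of the set are not private to this tissue: Otx1 and Otx2 also mark forebrain and midbrain neuroepithelium, Lmx1a and Lmx1b the ventral midbrain, and Otx2, Ttr and Trpm3 the retinal pigment epithelium.

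Promoter sequence was held for 4 of the 9 genes (Lmx1a, Lmx1b, Otx2 and Trpm3), in RefSeq tables of build GRCm38.p6. Because these 4 genes were all lower in the libraries labelled -/-, the 250 bases before 1 annotated start of each are shown, on the strand of the gene. Where there was more than 1 start, the start furthest upstream was taken. The windows are chr1:167689308-167689557 (plus strand, Lmx1a), chr2:33641099-33641348 (minus strand, Lmx1b), chr14:48667645-48667894 (minus strand, Otx2) and chr19:22138796-22139045 (plus strand, Trpm3). They were searched on both strands for TAATCC, the core motif of Otx factors, and TAATTA, a core motif of LIM-homeodomain factors such as the Lmx1 proteins. Capitals mark the matches.
Lmx1a: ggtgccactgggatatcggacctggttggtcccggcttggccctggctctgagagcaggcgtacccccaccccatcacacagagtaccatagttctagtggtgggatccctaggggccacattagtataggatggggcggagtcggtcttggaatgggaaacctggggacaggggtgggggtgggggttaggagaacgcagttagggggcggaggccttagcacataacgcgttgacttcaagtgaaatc
Lmx1b: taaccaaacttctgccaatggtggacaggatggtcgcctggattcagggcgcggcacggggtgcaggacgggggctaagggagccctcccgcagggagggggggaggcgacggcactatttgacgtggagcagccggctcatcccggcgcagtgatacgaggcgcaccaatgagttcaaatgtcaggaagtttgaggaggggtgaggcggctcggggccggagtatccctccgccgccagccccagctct
Otx2: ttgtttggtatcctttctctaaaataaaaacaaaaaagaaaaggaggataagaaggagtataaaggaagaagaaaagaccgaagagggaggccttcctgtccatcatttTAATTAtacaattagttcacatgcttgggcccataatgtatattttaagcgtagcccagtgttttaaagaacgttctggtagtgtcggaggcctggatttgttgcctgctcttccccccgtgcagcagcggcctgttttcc
Trpm3: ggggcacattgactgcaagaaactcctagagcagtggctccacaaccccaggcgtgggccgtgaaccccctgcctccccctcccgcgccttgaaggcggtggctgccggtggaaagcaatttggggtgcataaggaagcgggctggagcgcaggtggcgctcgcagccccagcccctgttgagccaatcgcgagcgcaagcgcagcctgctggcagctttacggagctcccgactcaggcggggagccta
The Otx2 window held 1 TAATTA, which begins 141 bases before the start, and the other 3 windows held neither motif. Of the other 3 annotated Otx2 starts, the one at position 48665109 had 3 TAATTA and 1 TAATCC in its 250 bases, which lie in Otx2 exons, and the other 2 had none. Among 32851 promoter windows of this length, 6.25% held TAATCC and 4.84% held TAATTA. Of the Lmx1b window, 156 bases lie under exons of the noncoding gene C130021I20Rik. An intron of Trpm3 also holds the gene of miR-204, on the same strand (chr19:22750610-22750631), whose mature sequence is shown with its seed in capitals.
mmu-miR-204-5p: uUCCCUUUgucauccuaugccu
Its own row in the table held 1 read, in flox/flox C. The libraries were made from poly(A) RNA, and the mature miRNA was not measured.

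Total counts ran from 29031604 to 39646793 in the libraries labelled -/- and from 24565560 to 29820515 in the flox/flox libraries. Levels are given as CPM, counts relative to the library total after TMM scaling, and a level of 1 CPM rests on 25.1 reads or more. Dmrta2 itself was at 409, 414 and 439 CPM in -/- A, B and C, against 85.2, 75.1 and 79.2 CPM in the flox/flox libraries A, B and C. Dmrta2 was thus higher in every library labelled -/-. As the extent of the deletion is not in the labels, these levels check nothing about it. Directions are therefore those of the libraries labelled -/-. Of 20549 genes tested with edgeR's quasi-likelihood test, 35.3% were called, 17.4% as falling and 17.9% as rising, at an adjusted p under 0.05 (Benjamini-Hochberg), and "fell" and "rose" below mean past that threshold. Genes of chromosome 11, which carries Otx1 and Foxj1, had a median log2 fold change 0.52 above that of the other genes, and of the 1589 tested there 6.04% fell and 59.6% rose. The progenitor markers Sox1, Sox2, Nes and Pax6 were present in every library. Sox2 was at 179 to 186 CPM in the libraries labelled -/- and 231 to 239 CPM in the flox/flox libraries. Sox2 does not stand for the other progenitor genes: of 10 listed, 6 rose and 4 fell, with a median log2 fold change of 0.54.

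The roof plate and choroid plexus genes were lower in the libraries labelled -/- nearly throughout. Of the 9 genes, 8 fell and 0 rose, where 17.4% of all tested genes fell. The remaining gene, Ttr, did not pass. The falls ran from 1.63-fold in Otx1 to 18.8-fold in Trpm3, and the median log2 fold change of the 9 genes was -2.28, against -0.00253 over all genes tested. In the 8 genes that fell, every library labelled -/- lay below every flox/flox library, as was the case for 25.4% of all tested genes (51.0% had no overlap in either direction). In bulk RNA, fewer cells of a type and less RNA per cell cannot be told apart.

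**Figure D1:**
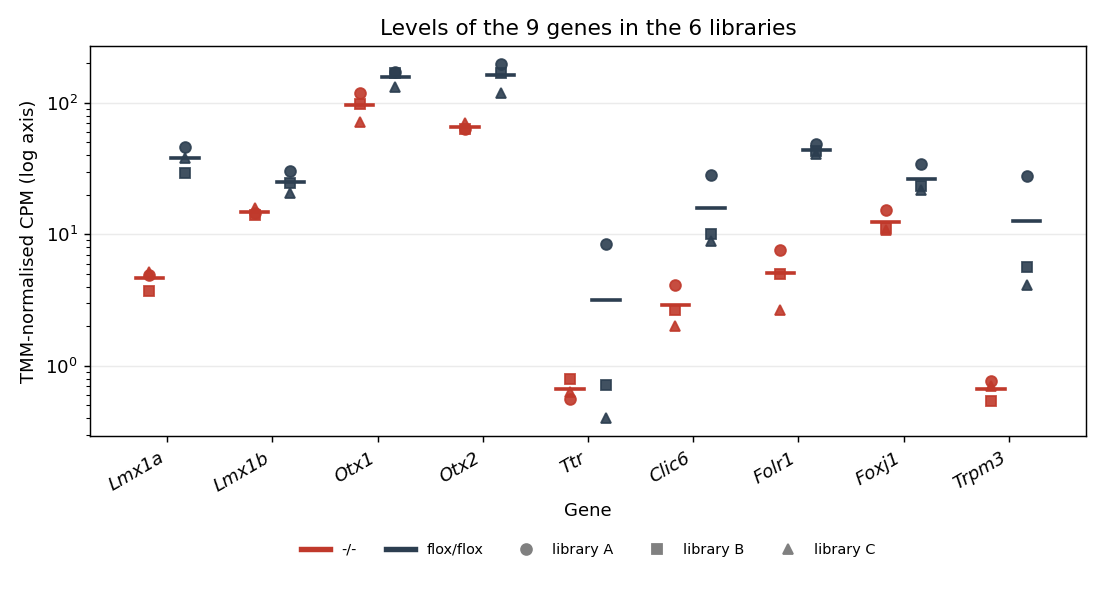
Level of each of the 9 genes (TMM-normalised CPM, log axis) in the 3 libraries labelled -/- (red, left) and the 3 flox/flox libraries (dark, right). Symbols give the library letter and bars the group mean. The groups overlap only in Ttr, where flox/flox A is at 8.38 CPM and the other 5 libraries are at 0.398 to 0.794 CPM.

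Of the LIM-homeodomain pair, Lmx1a was reduced far more than Lmx1b. Lmx1a, on which roof plate formation depends in the mouse (chromosome 1, 167689237 to 167848741, plus strand), was at 4.93, 3.74 and 5.21 CPM in -/- A, B and C, against 46.2, 29.5 and 38.2 CPM in the flox/flox libraries A, B and C. The lowest flox/flox library was well above the highest library labelled -/-. Lmx1a fell 8.22-fold (-3.04 ± 0.20, log2, SE, adjusted p = 0.000306, edgeR). Lmx1b (chromosome 2, 33560965 to 33640511, minus strand), also a factor of the midbrain and of serotonergic and dopaminergic neurons, was at 14.6, 14.0 and 15.8 CPM in -/- A, B and C. In the flox/flox libraries A, B and C it was at 30.5, 24.4 and 20.6 CPM, so that the groups were apart but close. Lmx1b fell by 0.77 ± 0.14 on the log2 scale (1.70-fold, adjusted p = 0.00586, edgeR). Within a library, the ratio of Lmx1a reads to Lmx1b reads was 0.337, 0.267 and 0.330 in -/- A, B and C, against 1.51, 1.21 and 1.85 in the flox/flox libraries A, B and C. More reads fell on Lmx1b than on Lmx1a in every library labelled -/-, and fewer in every flox/flox library. The log2 ratio differed by -2.28 between the groups, with an exact two-sided permutation p of 0.1, the smallest that 3 libraries against 3 can give (0.2 adjusted over the 2 paralog pairs).

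The head patterning genes Otx1 and Otx2 were the most abundant of the set, and Otx1 had the smallest of the 8 falls. Otx2 (chromosome 14, 48657677 to 48673819, minus strand), which is needed for head development in the mouse and stays on in the choroid plexus, was at 63.0, 63.7 and 70.3 CPM in -/- A, B and C. In the flox/flox libraries A, B and C it was at 199, 168 and 119 CPM. The libraries labelled -/- were close together and the flox/flox libraries spread over a range of 1.67-fold. Otx2 fell by 1.30 ± 0.17 on the log2 scale, or 2.47-fold (adjusted p = 0.0015, edgeR). Otx1 (chromosome 11, 21994764 to 22002897, minus strand), a related factor of the forebrain and midbrain, was at 118, 98.9 and 72.1 CPM in -/- A, B and C, against 171, 168 and 132 CPM in the flox/flox libraries A, B and C. Here the spread was wider among the libraries labelled -/-, and the highest of them came near to the lowest flox/flox library. Otx1 fell 1.63-fold (-0.70 ± 0.18, log2, SE, adjusted p = 0.0201, edgeR). The call was lost without -/- B (adjusted p = 0.0625, edgeR), without flox/flox A (0.0593) and without flox/flox B (0.0736), with log2 differences of -0.71, -0.64 and -0.65, and over all alternatives the adjusted p lay between 0.000358 and 0.0736. With the shift of chromosome 11 taken out as an offset, the log2 difference was -1.22 (adjusted p = 0.00314, edgeR). The ratio of Otx1 to Otx2 reads was 1.87, 1.55 and 1.03 in -/- A, B and C, against 0.861, 1 and 1.11 in the flox/flox libraries A, B and C. These ratios overlapped (log2 difference 0.55, exact two-sided permutation p = 0.2, with 0.1 the smallest possible).

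Foxj1, the forkhead factor that switches on genes of motile cilia (chromosome 11, 116330704 to 116335399, minus strand), was at 15.3, 11.3 and 10.8 CPM in -/- A, B and C. In the flox/flox libraries A, B and C it was at 34.3, 23.3 and 21.9 CPM. The A library was the highest of each group, and the groups did not overlap. Foxj1 fell by 1.09 ± 0.20 on the log2 scale, or 2.12-fold (adjusted p = 0.00609, edgeR). With the chromosome 11 offset its log2 difference was -1.60 (adjusted p = 0.00197, edgeR).

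Among the genes of the choroid plexus epithelium itself, Folr1 gave the most even picture in the control. Folr1 (chromosome 7, 101858331 to 101870788, minus strand), the folate receptor that carries folate into the cerebrospinal fluid, was at 7.65, 4.96 and 2.67 CPM in -/- A, B and C, against 48.3, 42.9 and 40.6 CPM in the flox/flox libraries A, B and C. The control libraries differed by 1.19-fold at most and those labelled -/- by 2.86-fold. The fall was -3.09 ± 0.31 (log2, SE), or 8.49-fold (adjusted p = 0.000617, edgeR). Clic6 (chromosome 16, 92485736 to 92541243, plus strand), a member of the chloride intracellular channel family, was at 4.12, 2.67 and 2.01 CPM in -/- A, B and C. In the flox/flox libraries A, B and C it was at 28.5, 10.1 and 8.88 CPM, so that 1 control library stood far above the other 2. Clic6 fell 5.36-fold (-2.42 ± 0.50, log2, SE, adjusted p = 0.00872, edgeR) with all libraries and 3.21-fold without flox/flox A (adjusted p = 0.00655, edgeR).

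Trpm3 and Ttr depended most on flox/flox A. Trpm3 (chromosome 19, 22139046 to 22995410, plus strand), a cation channel and the host of miR-204, was at 0.762, 0.539 and 0.704 CPM in -/- A, B and C, against 28.0, 5.70 and 4.10 CPM in the flox/flox libraries A, B and C. Between 19 and 30 reads stood behind the values of the libraries labelled -/-, and the lowest control library held 103. Trpm3 fell 18.8-fold (-4.24 ± 0.83, log2, SE, adjusted p = 0.00711, edgeR). Without flox/flox A the fall was 7.29-fold (adjusted p = 0.00138, edgeR). Ttr (chromosome 18, 20665280 to 20674321, plus strand), the carrier of thyroid hormone and retinol that the choroid plexus secretes in large amounts, was at 0.559, 0.794 and 0.633 CPM in -/- A, B and C. In the flox/flox libraries A, B and C it was at 8.38, 0.722 and 0.398 CPM, from 248, 19 and 10 reads. The other 2 control libraries lay among those labelled -/-, and only flox/flox A stood apart. The log2 difference of Ttr was -2.28 ± 1.05 (SE) and did not pass (adjusted p = 0.132, edgeR). Without flox/flox A it was 0.23 (adjusted p = 0.672, edgeR), and without flox/flox C it was -2.78 and passed (adjusted p = 0.0436, edgeR), in a range of 0.0436 to 0.672 over its alternatives.

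**Figure D2:**
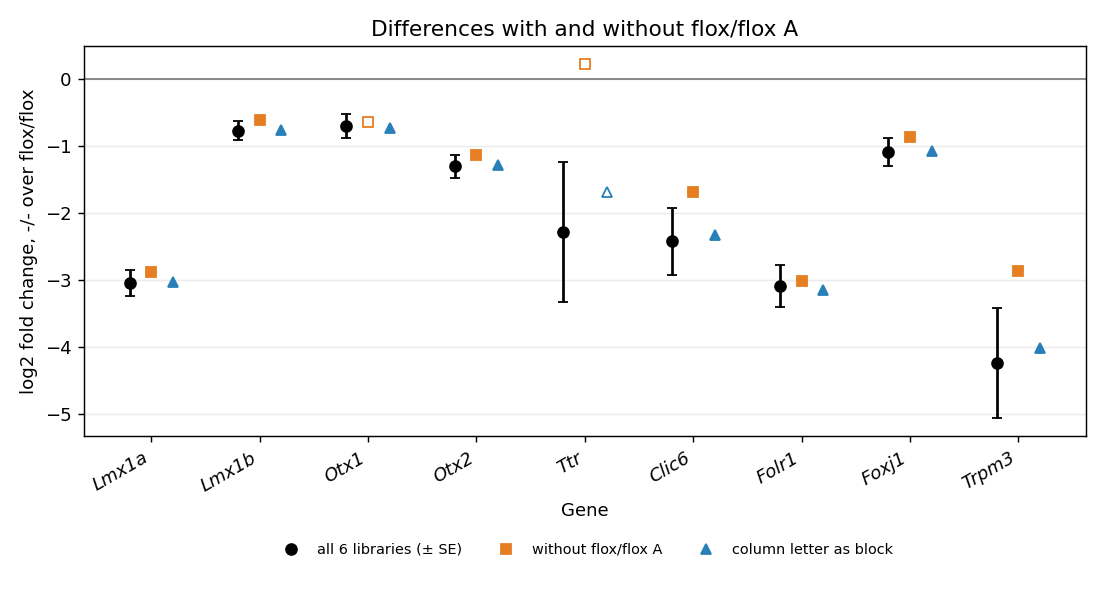
Log2 fold change of each gene, -/- over flox/flox, from edgeR with all 6 libraries (black, with SE), without flox/flox A (orange) and blocked on the column letter (blue). Filled orange and blue symbols passed the adjusted p of 0.05 and open ones did not; black symbols carry no such mark. Trpm3, Clic6 and Ttr move towards 0 or past it without flox/flox A, to -2.87, -1.68 and 0.23.

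In the control group all 9 genes were highest in flox/flox A, which was the highest control library for 38.2% of the 17814 tested genes averaging 1 CPM or more. Between control libraries, the ratio of the highest to the lowest flox/flox library was 21.0 for Ttr, 6.83 for Trpm3 and 3.21 for Clic6. Of the 17814 genes, 0.0281%, 0.107% and 0.848% had a ratio at least as large. For Lmx1a, Lmx1b, Otx1, Otx2 and Foxj1 the ratio was between 1.30 and 1.67, and the median gene had 1.16. Among the libraries labelled -/-, the ratio was 1.42 for both Ttr and Trpm3, and the largest were those of Folr1 (2.86) and Clic6 (2.05), where 0.545% and 2.74% of genes had a ratio at least as large. Summed over 13 listed genes of mesenchyme, the level was 261, 248 and 183 CPM in -/- A, B and C, against 770, 347 and 326 CPM in the flox/flox libraries A, B and C, so that flox/flox A was highest in these genes too. The collagen gene Col3a1 made up 97.2, 103 and 73.1 CPM of these sums in -/- A, B and C, against 537, 244 and 203 CPM in the flox/flox libraries A, B and C. Without it the sums overlapped, at 110 to 164 CPM in the libraries labelled -/- and 104 to 232 CPM in flox/flox, and flox/flox A was still the highest. Of the other collagen genes of this list, Col1a2 rose 3.31-fold (adjusted p = 0.0196, edgeR) and Col1a1 did not pass (adjusted p = 0.48, edgeR). The call of Col1a2 was lost without -/- A or flox/flox B. The part of the mesenchyme genes in the results was not tested.

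**Figure D3:**
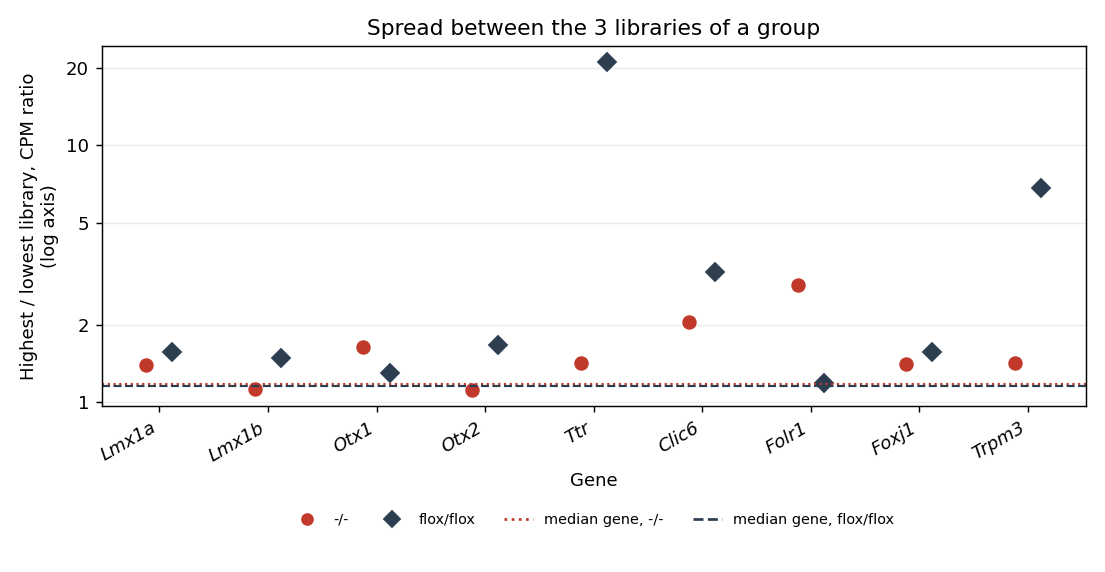
Ratio of the highest to the lowest of the 3 libraries of a group (CPM, log axis) for each gene, in the libraries labelled -/- (red circles) and flox/flox (dark diamonds). Lines give the median over 17814 genes, 1.18 for -/- and 1.16 for flox/flox. The flox/flox ratios of Ttr (21.0), Trpm3 (6.83) and Clic6 (3.21) stand above the others.

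Ordered by level per length (CPM per kilobase of exon), the genes ranked differently in the groups. In the libraries labelled -/- the order was Otx1 (17.8), Otx2 (15.6), Foxj1 (4.75), Lmx1b (3.03), Folr1 (2.22), Lmx1a (1.36), Clic6 (0.748), Ttr (0.558) and Trpm3 (0.0273). In the flox/flox libraries it was Otx2 (38.4), Otx1 (29.0), Folr1 (19.1), Lmx1a (11.2), Foxj1 (10.1), Lmx1b (5.16), Clic6 (4.05), Ttr (2.67) and Trpm3 (0.516). Neighbours whose libraries overlapped were Otx1 and Otx2, Lmx1b and Folr1, Folr1 and Lmx1a, and Clic6 and Ttr in the libraries labelled -/-. In the flox/flox libraries they were Otx2 and Otx1, Lmx1a and Foxj1, and each step from Lmx1b down to Trpm3. Folr1 and Lmx1a ranked above Lmx1b in the flox/flox libraries, and below it by their means in those labelled -/-. The exons of Trpm3 in the annotation add up to 24437 bases, over all its isoforms, which lowers its value per kilobase.

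Signals and factors of the dorsal midline, a list that leaves out the 9 genes, mostly moved the same way. Like the 9 genes and the other lists, it was chosen with earlier results of these data known, so its counts are a description. Of 17 listed genes 16 were tested, and their median log2 fold change was -2.01. In this list 12 fell and 1 rose, against 17.4% and 17.9% of all tested genes. The secreted Wnt enhancers Rspo3 and Rspo2 and the BMP ligand Bmp6 had the smallest adjusted p. Bmp6 was at 5.87 ± 2.44 CPM in the libraries labelled -/- and 61.1 ± 16.4 CPM in flox/flox (SD, n = 3 each), a fall of 10.3-fold (adjusted p = 0.000559, edgeR). Rspo3 fell 3.76-fold (adjusted p = 0.000359, edgeR) and Rspo2 6.02-fold (adjusted p = 0.00038, edgeR). The gene that rose was Gdf10, a TGF-beta family ligand, at 22.1 ± 2.01 CPM in the libraries labelled -/- and 5.03 ± 2.42 CPM in flox/flox (SD, n = 3 each). Its rise was 4.43-fold (adjusted p = 0.002, edgeR). Among the tested genes that did not pass, the Wnt ligands Wnt1 and Wnt2b, named after their values were seen, had log2 differences of -1.62 and -0.10. Wnt1 was at 7.96, 5.10 and 2.64 CPM in -/- A, B and C, against 28.4, 15.8 and 4.46 CPM in the flox/flox libraries A, B and C, and was lower in the library labelled -/- of every letter. Blocked on the column letter it passed (log2 difference -1.50, adjusted p = 0.00121, edgeR, against 0.0845 without the block), and 13 genes of the list fell.

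Other genes of the choroid plexus epithelium fell more often than they rose, and as many were tested without passing as fell. Of 28 listed genes 22 had enough reads to be tested, 10 fell, 2 rose and 10 did not pass, with a median of -1.11. Among all tested genes 17.4% fell and 17.9% rose. A fit that blocked on the column letter had 4 genes of the list rising. Cldn3, a tight junction claudin, was at 0.570 ± 0.114 CPM in the libraries labelled -/- and 4.67 ± 1.66 CPM in flox/flox (SD, n = 3 each), a fall of 8.07-fold (adjusted p = 0.00066, edgeR). Ezr, which links the membrane of microvilli to actin, fell 3.93-fold (adjusted p = 0.000773, edgeR) and Stra6, a retinol uptake receptor, 4.38-fold (adjusted p = 0.00197, edgeR). The 2 that rose were Htr2c, a serotonin receptor gene, and Car12, a carbonic anhydrase gene, by 7.10-fold and 4.16-fold to means of 1.63 and 2.61 CPM in the libraries labelled -/-. Among the 10 that did not pass were genes detected well in both groups, named after their values were seen. Vat1l averaged 33.4 CPM in the libraries labelled -/- and 36.2 CPM in flox/flox, and Cab39l averaged 23.0 CPM in those labelled -/- and 18.4 CPM in flox/flox. Enpp2 averaged 5.87 CPM in the libraries labelled -/- and 5.18 CPM in flox/flox, and Col8a1 averaged 5.90 CPM in those labelled -/- and 3.96 CPM in flox/flox. Cab39l passed in the fit blocked on the column letter (log2 difference 0.32, adjusted p = 0.0184, edgeR, against 0.0515 without the block). The marker Sostdc1 averaged 1.80 CPM in the libraries labelled -/- and 5.96 CPM in flox/flox, a fall of 3.29-fold (adjusted p = 0.0174, edgeR). Its call was lost without -/- B (adjusted p = 0.0569, edgeR). The markers Kl, Kcne2 and Kcnj13 were at or under 0.387 CPM in every library of both groups and were not tested. Aqp1, the water channel of the epithelium, was at 0.330, 0.255 and 0.211 CPM in -/- A, B and C, against 1.15, 0.342 and 0.558 CPM in the flox/flox libraries A, B and C (adjusted p = 0.0656, edgeR, and 0.0258 blocked on the column letter). Slc4a5, a bicarbonate transporter gene, differed by -0.02 ± 0.32 (log2, SE, adjusted p = 0.97, edgeR). Tmem72, another marker of the epithelium, had 0 reads in 5 libraries and 1 read in flox/flox C.

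Beside Foxj1, the regulators Gmnc, Mcidas, Ccno and Rfx2 of the multiciliated cell programme fell, and genes of the cilium itself were called in both directions. Of 33 listed genes 29 were tested, 11 fell and 4 rose, and the median log2 fold change was -0.18. Among all tested genes 17.4% fell and 17.9% rose. The number of listed genes that fell was 6 without flox/flox A and 6 without -/- B. Gmnc, which encodes the geminin-related inducer of multiciliated cells, was at 3.41, 2.30 and 1.79 CPM in -/- A, B and C, against 43.3, 20.7 and 19.3 CPM in the flox/flox libraries A, B and C. The groups were far apart, and the fall was -3.46 ± 0.39 (log2, SE, adjusted p = 0.000836, edgeR). Mcidas, its relative in the same programme, was less abundant and fell 6.88-fold (adjusted p = 0.000609, edgeR). Ccno, a cyclin-like gene needed for making the many centrioles, was at 5.46, 3.97 and 2.99 CPM in -/- A, B and C, against 17.2, 12.4 and 11.3 CPM in the flox/flox libraries A, B and C (log2 difference -1.71, adjusted p = 0.00215, edgeR). Rfx2, a transcription factor of cilium genes, fell 2.12-fold (adjusted p = 0.000552, edgeR). The rises with the smallest adjusted p were in Spag6l, a protein of the ciliary central apparatus (4.81-fold, to a mean of 0.843 CPM in the libraries labelled -/-), and, on chromosome 11, the dynein gene Dnah9 (1.60-fold) and Ccdc40 (1.25-fold). The other gene that rose, Dnaic2, also lies on chromosome 11, and its call was lost in each of the 6 fits without 1 library. Its log2 fold change was 0.65, that of Dnah9 0.68 and that of Ccdc40 0.33, beside the shift of 0.52 of that chromosome, where 59.6% of genes rose. Of the genes of the cilium that fell, named after their values were seen, Tekt2 had a log2 fold change of -1.08, Rsph4a -1.38, Dnah11 -0.68, Cfap43 -0.35 and Enkur -1.15, and each lost its call without at least 1 library. Tekt1 was at 0.425 to 0.633 CPM in the libraries labelled -/- and 0.342 to 0.710 CPM in flox/flox, and Deup1 at or under 0.637 CPM in every library.

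**Figure D4:**
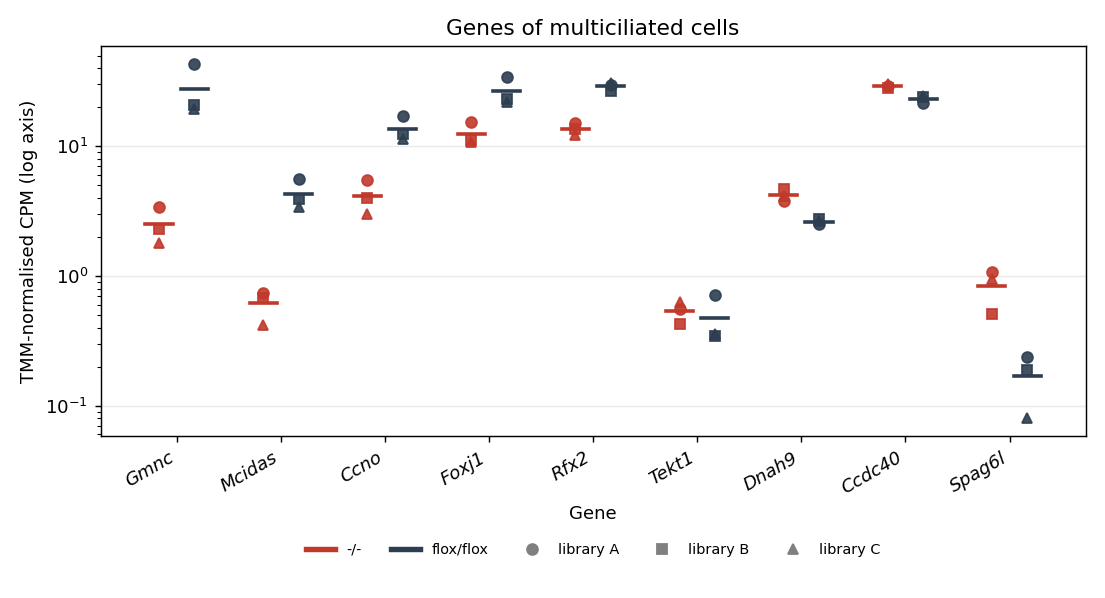
Levels (TMM-normalised CPM, log axis) of Foxj1 and 8 other genes of multiciliated cells in the libraries labelled -/- (red, left) and flox/flox (dark, right). Gmnc, Mcidas, Ccno, Foxj1 and Rfx2 are lower in every library labelled -/- than in any flox/flox library, while Dnah9, Ccdc40 and Spag6l are higher and Tekt1 overlaps.

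Markers of other tissues that express some of the 9 genes were counted as well, beside 17.4% falling and 17.9% rising among all tested genes. Of 12 genes of the retinal pigment epithelium, 9 had too few reads to be tested; Tyr and Rgr had 0 reads in all libraries, and Rpe65 was at or under 0.0398 CPM. The 1 that fell was Mitf, the pigment cell factor, 2.35-fold (adjusted p = 0.00247, edgeR). Pmel averaged 1.07 CPM in the libraries labelled -/- and 1.16 CPM in flox/flox and did not pass (adjusted p = 0.791, edgeR). Rlbp1 averaged 0.800 CPM in those labelled -/- and 0.492 CPM in flox/flox and did not pass either (adjusted p = 0.118, edgeR). The summed level of this list was 3.59 to 3.71 CPM in the libraries labelled -/- and 4.37 to 5.98 CPM in flox/flox, and without Mitf it overlapped (2.29 to 2.41 CPM in the libraries labelled -/- and 1.86 to 2.55 CPM in flox/flox). Of 16 genes of the floor plate and of midbrain dopaminergic neurons, which share Lmx1a, Lmx1b and Foxj1 with the roof plate, 7 rose and 2 fell. Shh rose 21.3-fold and Spon1 7.72-fold (adjusted p = 0.00014 and 0.000482, edgeR), and 28.3% of the exonic bases of Shh overlap other genes. The 2 that fell were the midbrain gene En2, 3.91-fold (adjusted p = 0.000951, edgeR), and Nr4a2, a factor of dopaminergic neurons, 1.64-fold (adjusted p = 0.0255, edgeR). The call of Nr4a2 was lost without -/- A, -/- B or flox/flox C. Of the other markers of this list, Th rose 3.94-fold, to a mean of 1.73 CPM in the libraries labelled -/- (adjusted p = 0.00273, edgeR). Foxa2 rose 2.07-fold (adjusted p = 0.022, edgeR), a call lost without -/- A, -/- B or flox/flox B, and Corin did not pass. The summed level of the list was 200 to 242 CPM in the libraries labelled -/- and 116 to 133 CPM in flox/flox. Of 15 genes of visceral endoderm and liver, which make Ttr, 4 rose and 1 fell; Alb had 0 reads throughout and Apoa1 was at or under 0.159 CPM. The summed level of that list was 41.3 to 85.0 CPM in the libraries labelled -/- and 34.3 to 101 CPM in flox/flox. Dab2 alone was at 18.0 to 36.1 CPM in the libraries labelled -/- and 21.8 to 76.2 CPM in flox/flox. Without it the sums were 42.4, 48.9 and 23.3 CPM in -/- A, B and C, against 24.4, 13.6 and 12.5 CPM in the flox/flox libraries A, B and C. Of 13 mesenchyme genes 6 fell and 1 rose, of 10 neural progenitor genes 4 fell and 6 rose, and of 10 neuron genes 0 fell and 9 rose. Without -/- B, 3 mesenchyme genes and 2 neural progenitor genes fell, and 2 progenitor genes fell without flox/flox B. The mesenchyme genes that rose numbered 0 without -/- A or flox/flox B and 2 without -/- C or flox/flox A, and 1 floor plate gene fell without -/- A or -/- B. Without flox/flox A, without flox/flox B and without -/- B, 5, 4 and 6 neuron genes rose. The summed level of the neuron genes was 2630 to 4446 CPM in the libraries labelled -/- and 1232 to 2175 CPM in flox/flox. The part of these markers in the falls of the 9 genes was not tested.

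**Figure D5:**
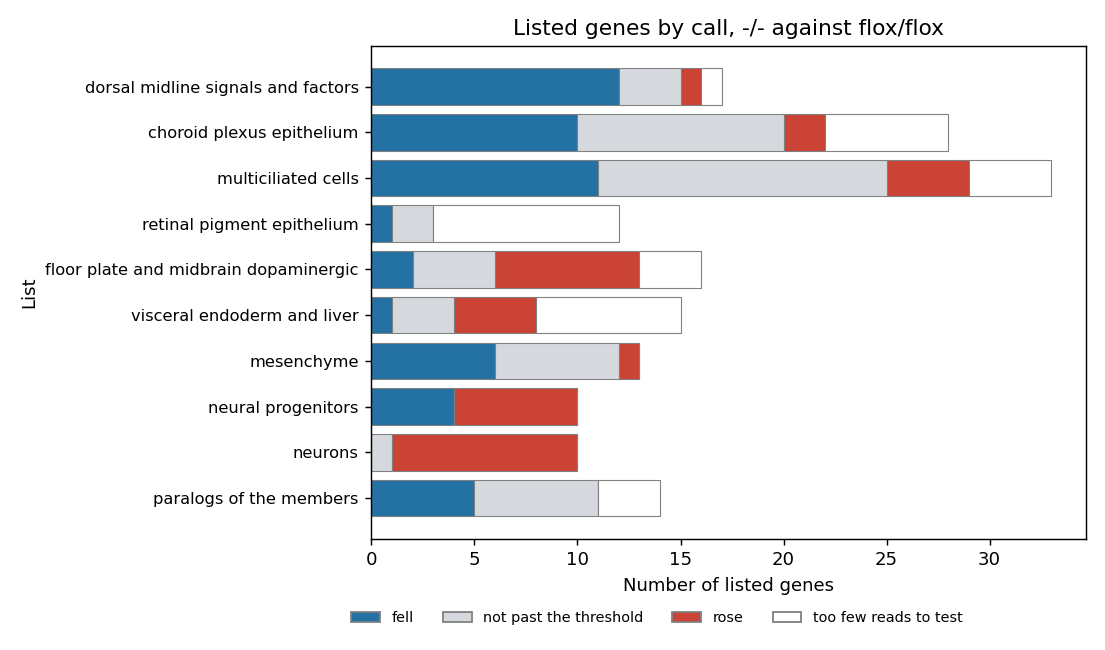
Number of genes of each list that fell (blue), did not pass (grey), rose (red) or had too few reads to be tested (white), -/- against flox/flox, at an adjusted p of 0.05 in edgeR. Dorsal midline genes are mostly blue (12 of 17) and neuron genes mostly red (9 of 10).

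Relatives of the 9 genes by family fell in 5 of 11 tested cases and rose in 0, where 17.4% of all tested genes fell. Clic5, a relative of Clic6, fell 6.61-fold (adjusted p = 0.000829, edgeR) and Trpm1, a relative of Trpm3, 3.94-fold (adjusted p = 0.00193, edgeR). Folr2, which lies beside Folr1 on chromosome 7, fell 2.62-fold (adjusted p = 0.00256, edgeR), and 63.1% of its exonic bases overlap another gene. The ubiquitous relatives Clic4 and Trpm7, named after their values were seen, differed by -0.09 and -0.10 (log2) and did not pass. Crx, the Otx relative of photoreceptors, had at most 17 reads in a library and was not tested.

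The genes most like a member over the 6 libraries were sought by Pearson's correlation of log2(CPM + 0.5), among named genes averaging 5 CPM or more. For Lmx1a these were Antxr1, Ssh1 and Camk1d (r between 0.998 and 0.999). Camk1d, a kinase gene, was at 9.35, 8.17 and 9.15 CPM in -/- A, B and C, against 46.9, 31.0 and 36.4 CPM in the flox/flox libraries A, B and C. For Otx2 they were Csnk1a1, Lsp1 and Efna5 (r between 0.998 and 0.999), for Trpm3 Dsel, Mga and Erlin2 (r between 0.997 and 0.999) and for Ttr Mrpl33, Nexn and Fer (r between 0.986 and 0.999). The genes most like Ttr were, as Ttr itself, highest in flox/flox A, but by far smaller ratios: Nexn was at 8.72 CPM there and between 4.58 and 5.33 CPM in the other 5 libraries. With 6 libraries in 2 groups these values mostly repeat the difference between the groups or the height of flox/flox A, and they are given as a description.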

How the data were processed

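Libraries were made from 1 µg of RNA with a stranded poly(A) mRNA kit, per the labels' protocols. The authors deposited raw counts of reads for each Ensembl gene, made with BWA 0.5.9 and featureCounts 1.4.6 on mm10 (GRCm38), per the submitters' processing notes. Not given in the sources used here are the annotation release, the strand setting and the treatment of multiply mapped reads, so reads of overlapping genes may be shared. At most 3.98% of the exonic bases of any of the 9 genes overlap another gene. The counts are labelled markdup, for marked duplicates, and whether the marked reads were counted is not given. Columns carry a genotype and a letter and were assigned to a group, not to a numbered sample; 0 columns were left out. Of 48526 identifiers, 48058 matched a symbol in GENCODE M21.

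The quasi-likelihood test of edgeR 4.0.16 in R 4.3.3 was run on the counts of all genes (filterByExpr with a minimum count of 10 and a minimum total of 15, TMM scaling, group as the only term, two-sided, Benjamini-Hochberg over 20549 genes, threshold 0.05). The SE of a log2 fold change is its size divided by the square root of F. The scripts were tested on simulated data. Libraries of a group differed by more than sampling noise (chi-square per gene 5.47 to 29.8). Deviations from the group means correlated between same-letter libraries (0.366, 0.14 and 0.344 for A, B and C over 17814 genes), so the column letter was used as a block in an alternative. The other alternatives were RLE and upper-quartile scaling, no filter, a filter of 1 CPM in 3 libraries, DESeq2 1.42.0, limma-voom (limma 3.58.1), a threshold of 0.01, each library left out, and an offset for chromosome 11.

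The 9 genes and the 10 lists were chosen with earlier results of these data known. Named are all 9 genes and the 3 genes most like Lmx1a, Otx2, Trpm3 and Ttr. In some lists the called genes of smallest adjusted p are named (at most 3 a direction), in others fewer or none. Not all defining markers of each cell type are named. Ccno, Tekt1, Deup1, Aqp1, Slc4a5, Crx and others so marked were named after their values were seen. So were Sostdc1, Col1a1, Col1a2, Myb, Rfx3, Rfx4, Pmel and Rlbp1. Promoters and miRNAs are RefSeq's, build GRCm38.p6; 5 of the 9 genes had no promoter entry in the table used. Counts behind some values are low, as few as 10 reads for Ttr, 19 for Trpm3, 4 for Htr2c and 2 for Spag6l in a library.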

Additional observations from a re-analysis of the deposited data

How the results depend on the processing

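Lmx1a, Lmx1b, Otx2, Clic6, Folr1, Foxj1 and Trpm3 kept their direction and their call under every alternative run at a threshold of 0.05. Without 1 library, the log2 difference of Otx1 lay between -0.87 and -0.52, and its call was lost in 3 of 6 such fits. That of Ttr lay between -2.78 (passing, without flox/flox C) and 0.23 (without flox/flox A, the direction reversed), and it had no value with the 1 CPM filter or DESeq2, which gave no adjusted p. Blocking on the column letter (replicate block) changed no call of the 9 genes; in the choroid plexus list 4 genes rose with it, against 2. Of the multiciliated cell genes, 6 to 10 fell without 1 library, and at a threshold of 0.01 4 fell and 2 rose. The cause of these changes was not tested. Ttr had 10 reads in flox/flox C and 248 in flox/flox A. With 3 libraries a group and 1 line per genotype, differences between lines cannot be told apart from the genotype.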
